A study of Homo sapiens with 6 samples.

Results

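The genes described here are the 36 aminoacyl-tRNA synthetase genes that were chosen by symbol on a human expression array. They comprise 20 genes whose enzyme works in the cytosol, or in both the cytosol and the mitochondria, and 16 genes, with symbols ending in 2, whose enzyme works in the mitochondria. Every probe whose gene name in the scanner output was one of these symbols was used, which gave 41 probes. The array held 43317 gene names on 58201 probes, and 21703 of these names passed a filter on dim probes. All 36 synthetase genes passed it, each with all of its probes. Array names are older symbols, so that MARS, SARS and AARS are now MARS1, SARS1 and AARS1, and a current symbol was found through the probe's accession for 35 of the 36.

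The study used 22RV1, a human prostate carcinoma cell line that expresses the androgen receptor and is labelled as SPINK1 positive (SPINK1 is a secreted inhibitor of trypsin). Its groups were stable lines made with the lentiviral vector pLemiR-338-5p, which carries miR-338-5p, or with pLemiR-421, which carries miR-421, and control cells made with pLemiR-RFP, which carries a red fluorescent protein. All of them, control included, were kept in puromycin, an inhibitor of protein synthesis that selects for the vector. Each array compared control RNA, labelled with Cy3, with RNA of a miRNA line, labelled with Cy5, on 3 arrays for miR-338-5p (replicates 1, 2 and 3) and 3 for miR-421 (a sample named as a pool, and replicates 1 and 2). The RNA received poly(A) tails before oligo-dT priming, and no dye swap is labelled. The labels do not say what the pool holds, whether a line was 1 clone or many, or whether the arrays came from separate cultures, so p-values measure the spread between these arrays, which may be technical. Nor do they give the number of control cultures, and if there was 1, both comparisons share that control.

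Aminoacyl-tRNA synthetases join each amino acid to its transfer RNA (tRNA), the step that sets the meaning of the genetic code. Cytosolic and mitochondrial protein synthesis mostly use separate sets of these enzymes, both encoded in the nucleus. Some cytosolic enzymes assemble with scaffold proteins into the multi-synthetase complex, and others act alone or as dimers. When amino acids run short or the endoplasmic reticulum is stressed, the transcription factor ATF4 is known to raise genes for amino acid synthesis, amino acid uptake and many cytosolic synthetases.

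A miRNA pairs with messenger RNAs mainly through its seed, bases 2 to 8, shown here in capitals because the seed differs between the miRNAs that define the groups. The mature sequences are from RefSeq (GRCh38.p14). The hsa-miR-338-5p sequence lies on chromosome 17, 81125923 to 81125944, minus strand, and hsa-miR-421 on chromosome X, 74218392 to 74218414, minus strand.
hsa-miR-338-5p: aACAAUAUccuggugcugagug
hsa-miR-421: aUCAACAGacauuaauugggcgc
No seed site was searched in the synthetase transcripts, whose sequences were not used here.

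Between 44.3% and 47.9% of gene spots were well above background in Cy3 and between 41.9% and 48.3% in Cy5, with the lowest share in Cy5 of miR-421 replicate 1. That array gave the lowest log2 ratio of its group for 25 of the 36 synthetase genes, against 44.6% of all genes, and results that rest on it are given with and without it. Of 10 markers of prostate luminal epithelium, 10 were well above background in both dyes on all 6 arrays. The basal markers KRT5 and TP63 were above background on 0 arrays, and the basal marker KRT14 was above it in Cy3 on 1 array and in Cy5 on 0. Of 5 fibroblast markers, COL1A2 and COL3A1 were above background on 0 arrays. COL1A1 was above it in both dyes on all 6 arrays, and DCN and LUM in Cy3 on 6 and in Cy5 on 5. Of the 5, 1, LUM, rose under miR-421, with a log2 ratio of 2.14 ± 0.73 (SD, n = 3) and a limma adjusted p of 0.0438. The summed Cy5 signal of the 3 fibroblast markers that passed the filter was 7.61 to 9.31 (log2 intensity) on the miR-338-5p arrays and 9.02 to 10.37 on the miR-421 arrays, and its part in the synthetase results was not tested. The endothelial marker PECAM1 was above background on 0 arrays, whereas probes for the endothelial genes VWF and CDH5 and the blood genes PTPRC and CD3E were above it in both dyes on all 6, and the part of these cell types in the results was not tested.

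All values below are log2 ratios of Cy5 over Cy3, that is, miRNA line over control, so a value of 1 is a doubling of the signal. A gene is represented by its brightest probe, and "past the threshold" means an adjusted p under 0.05 by limma with Benjamini-Hochberg adjustment over all probes that passed the filter. In RNA from whole cultures, fewer cells with a transcript and less of it per cell cannot be told apart.

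Cytosolic synthetase genes moved in both directions, and mitochondrial ones stayed closer to control. Under miR-421, 9 of the 36 genes rose (MARS, SARS, AARS, YARS, CARS, WARS, FARSA, VARS2 and FARS2) and 2 fell (LARS and NARS2). Over all 21694 genes tested in that comparison, 10.0% rose and 12.6% fell. Under miR-338-5p, 2 of the 36 rose (MARS and SARS) and 0 fell, with 12 at an unadjusted p under 0.05, beside 3.96% of 21701 genes that rose and 5.23% that fell. The median over the 36 genes was 0.03 in each line, while the median over all genes was -0.00062 (miR-338-5p) and 0.0062 (miR-421). These counts depended on single arrays: without miR-421 replicate 2, limma called 0 of the 36 under miR-421 (15 at an unadjusted p under 0.05) and 527 of 21679 genes, and without miR-338-5p replicate 1 it called 7. Without miR-421 replicate 1, an array that enters the estimate of spread of both lines, the miR-421 count was 11, of which 7 were among the 11 named above, and the miR-338-5p count rose to 8 (MARS, SARS, CARS, TARS and WARS higher, RARS, DARS and IARS2 lower). The miR-338-5p count was 1 (MARS) without any single miR-338-5p array and without miR-421 replicate 2.

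**Figure D1:**
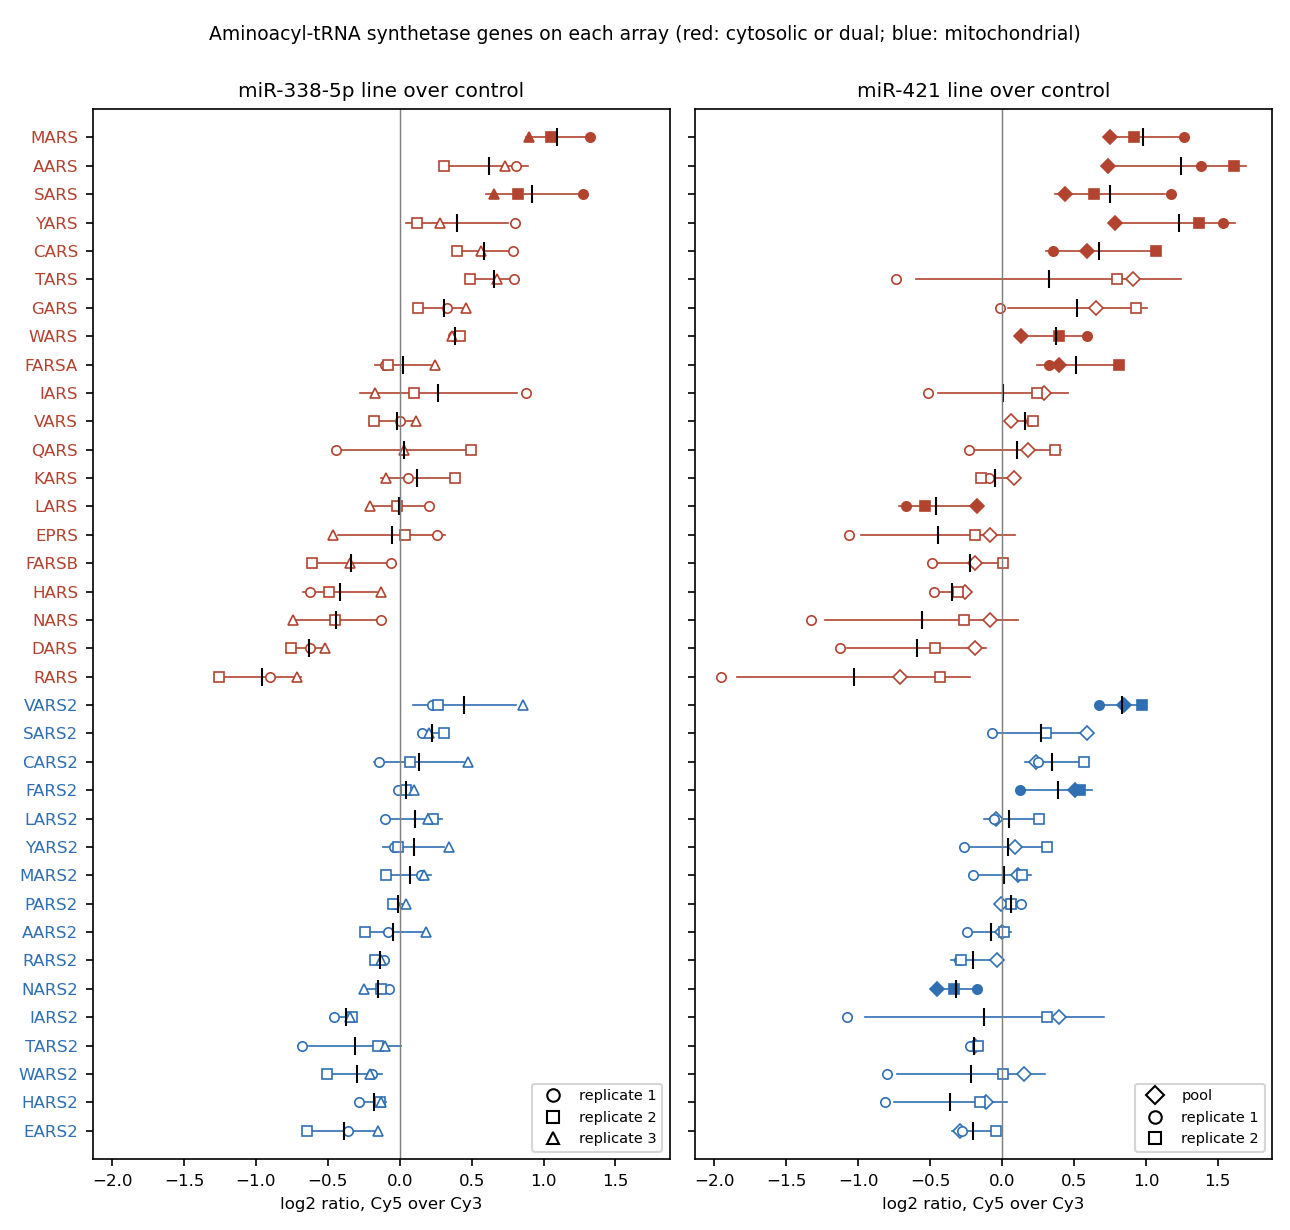
Log2 ratio (Cy5 over Cy3, x axis) of each synthetase gene (y axis, cytosolic or dual in red, mitochondrial in blue) on the arrays of each line; symbols are arrays, bars the mean, lines 1 SD on each side, and filled symbols mark genes past the threshold. MARS lies between 0.75 and 1.32 on all 6 arrays, RARS between -1.95 and -0.43, and most mitochondrial genes lie near 0.

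MARS, which charges tRNA with methionine for both initiation and elongation, rose in both lines. Its ratio was 1.32, 1.05 and 0.90 on miR-338-5p replicates 1, 2 and 3, and 0.75 in the miR-421 pool, 1.26 in replicate 1 and 0.91 in replicate 2. All 6 values were above 0 and the arrays of the lines overlapped. The mean under miR-338-5p was 1.09 ± 0.21 (SD, n = 3), a 2.13-fold level (limma adjusted p = 0.0114), and 0.98 ± 0.26 under miR-421, a 1.97-fold level (adjusted p = 0.0074). The probe lies on chromosome 12, 57910373 to 57910432, plus strand (hg19), and no exon or UTR annotation was used here for any probe. A second MARS probe at 57884057 to 57884116 gave smaller means that also passed the threshold, 0.43 (limma adjusted p = 0.0396) and 0.41 (adjusted p = 0.0265). That probe was dimmer, and the image software's own ratio, which does not add the offset of 50, put it at 0.74 and 0.79.

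SARS, the serine enzyme, which also charges the selenocysteine tRNA, was the other gene past the threshold in both lines. It stood at 1.27, 0.83 and 0.65 on the miR-338-5p arrays and at 0.44 in the miR-421 pool, 1.17 in replicate 1 and 0.64 in replicate 2. Again all 6 arrays were above 0, with the first miR-338-5p replicate highest and the pool lowest. The mean was 0.92 ± 0.32 (SD, n = 3; limma adjusted p = 0.0321) and 0.75 ± 0.38 (adjusted p = 0.0312), and the miR-421 call was lost without replicate 1 or replicate 2 of miR-421. The miR-338-5p call was past the threshold in 9 of 17 alternative settings and was lost without any single array but miR-421 replicate 1. The leading probe is at chromosome 1, 109780709 to 109780768, plus strand (hg19). The array assigns 2 further probes to SARS, with means of 0.50 and 0.10 under miR-338-5p, against 0.47 and 0.11 under miR-421, none past the threshold. One of them, at 109759720 to 109759779, carries the accession of a noncoding RNA, NR_034072.

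AARS, the alanine enzyme, rose under miR-421. Its ratio was 0.81, 0.31 and 0.73 under miR-338-5p and 0.74, 1.38 and 1.61 in the miR-421 pool, replicate 1 and replicate 2. The pool lay within the range of the miR-338-5p arrays and the other miR-421 arrays lay above it. The miR-421 mean was 1.24 ± 0.45 (SD, n = 3), a 2.37-fold level (limma adjusted p = 0.0102), and the miR-338-5p mean was 0.62 ± 0.27 (adjusted p = 0.0899). The difference between the lines, -0.63 (miR-338-5p minus miR-421), was not past the threshold in limma (adjusted p = 0.365). The AARS probe is at chromosome 16, 70287876 to 70287935, minus strand (hg19).

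YARS, the tyrosine enzyme, had a like pattern. It stood at 0.80, 0.12 and 0.28 on the miR-338-5p arrays and at 0.79, 1.53 and 1.37 in the miR-421 pool, replicate 1 and replicate 2. The highest miR-338-5p array and the pool were close to each other, and these were the values at which the lines overlapped. The miR-421 mean was 1.23 ± 0.39 (SD, n = 3), a 2.34-fold level (limma adjusted p = 0.0107), and the miR-338-5p mean was 0.40 ± 0.36 (adjusted p = 0.226). The difference of -0.83 was the largest among the 36 genes, and it too missed the threshold in limma (adjusted p = 0.26). The YARS probe is at chromosome 1, 33245799 to 33245858, minus strand (hg19).

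CARS, the cysteine enzyme, had ratios of 0.78, 0.40 and 0.57 under miR-338-5p, against 0.59, 0.35 and 1.07 under miR-421 (pool, replicates 1 and 2). All 6 were above 0, and the lines overlapped. Its mean was 0.58 ± 0.19 (SD, n = 3; limma adjusted p = 0.0609) and 0.67 ± 0.37 (adjusted p = 0.027). WARS, the tryptophan enzyme, which is also known as an interferon-induced gene, had ratios of 0.37, 0.42 and 0.37 under miR-338-5p, against 0.13, 0.59 and 0.39 under miR-421. The miR-338-5p arrays were close together, within the spread of the miR-421 arrays. Its mean was 0.39 ± 0.03 (limma adjusted p = 0.0522) and 0.37 ± 0.23 (adjusted p = 0.0353), and the miR-421 call was past the threshold in 5 of 17 alternative settings. The WARS call was lost without any single array except the pool, and the CARS call without the pool or miR-421 replicate 2.

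FARSA, the catalytic subunit of the cytosolic phenylalanine enzyme, stood at -0.10, -0.08 and 0.25 under miR-338-5p, against 0.39, 0.32 and 0.82 under miR-421 (pool, replicates 1 and 2). Every miR-421 array was above every miR-338-5p array. The miR-421 mean was 0.51 ± 0.27 (SD, n = 3; limma adjusted p = 0.0326), the miR-338-5p mean 0.02 ± 0.20 (adjusted p = 0.929), and the difference of -0.49 did not pass the threshold (adjusted p = 0.296). The miR-421 call was lost without the pool, replicate 1 or replicate 2 of miR-421, or replicate 1 of miR-338-5p. FARSB, the other subunit of the same enzyme, had means of -0.34 ± 0.28 and -0.22 ± 0.25, with neither past the threshold in limma (adjusted p = 0.166 and 0.268).

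LARS, the leucine enzyme, which is also described as a leucine sensor, was the cytosolic gene that fell. It stood at 0.21, -0.02 and -0.21 under miR-338-5p, against -0.18, -0.67 and -0.53 under miR-421 (pool, replicates 1 and 2). All 3 miR-421 arrays were below 0, and the pool lay within the miR-338-5p range. The miR-421 mean was -0.46 ± 0.25 (SD, n = 3; limma adjusted p = 0.0419), past the threshold in 7 of 17 alternative settings and lost when any single array but the pool was left out. The miR-338-5p mean was -0.01 ± 0.21 (adjusted p = 0.978), with a sign that turned under several alternatives.

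RARS, the arginine enzyme, had the lowest mean of all members in both lines, with adjusted p values above the threshold. Its ratio was -0.90, -1.26 and -0.72 under miR-338-5p and -0.71, -1.95 and -0.43 in the miR-421 pool, replicate 1 and replicate 2. All 6 arrays were below 0, and replicate 1 of miR-421 lay far below the others. The mean was -0.96 ± 0.28 (SD, n = 3; limma adjusted p = 0.0949) and -1.03 ± 0.81 (adjusted p = 0.0511). Without miR-421 replicate 1 the miR-338-5p mean passed the threshold (adjusted p = 0.0158, the lowest of a range up to 0.298 over 17 alternatives), and the miR-421 mean was -0.57. RARS was past the threshold in 2 of 17 alternative settings under miR-338-5p and in 6 under miR-421. The probe is at chromosome 5, 167946137 to 167946196, plus strand (hg19).

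DARS, the aspartate enzyme, HARS, the histidine enzyme, and NARS, the asparagine enzyme, were also below 0 on all 6 arrays, and none passed the threshold. The DARS means were -0.63 ± 0.12 and -0.59 ± 0.48 (SD, n = 3; limma adjusted p = 0.0746 and 0.0556). The HARS means were -0.42 ± 0.26 and -0.35 ± 0.11 (adjusted p = 0.0614 and 0.0607). The NARS means were -0.44 ± 0.31 and -0.56 ± 0.67, with the lowest value, -1.33, on miR-421 replicate 1. TARS, the threonine enzyme, was between 0.49 and 0.91 on 5 arrays and at -0.74 on miR-421 replicate 1, so that its miR-421 mean was 0.32 ± 0.92 (limma adjusted p = 0.501) beside 0.65 ± 0.16 under miR-338-5p (adjusted p = 0.246). TARS passed the threshold in both lines when that array was left out. GARS, the glycine enzyme, which works in both compartments, had means of 0.31 ± 0.17 and 0.52 ± 0.48 and was at -0.01 on the same array. GARS passed the threshold under miR-421 without that array, in the image software's ratio and in the authors' deposited table.

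The other cytosolic genes had means between -0.45 and 0.27, none past the threshold. EPRS, which joins the glutamate and proline activities in 1 protein, averaged -0.06 ± 0.37 and -0.45 ± 0.54 (SD, n = 3). IARS, the isoleucine enzyme, ranged from -0.52 to 0.88 over the 6 arrays, and its 3 probes had means between 0.00096 and 0.27. KARS, the lysine enzyme, which serves both compartments, QARS, the glutamine enzyme, and VARS, the valine enzyme, had means between -0.05 and 0.16.

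Among the 16 mitochondrial genes, 0 passed the threshold under miR-338-5p by limma (3 at an unadjusted p under 0.05), and 3 did under miR-421. VARS2, the valine enzyme, was the highest mitochondrial gene in both lines. It stood at 0.22, 0.26 and 0.86 under miR-338-5p, against 0.84, 0.67 and 0.97 under miR-421 (pool, replicates 1 and 2). All 6 arrays were above 0, and the third miR-338-5p replicate lay among the miR-421 arrays. Its mean was 0.45 ± 0.36 (SD, n = 3; limma adjusted p = 0.098) and 0.83 ± 0.15, a 1.78-fold level (adjusted p = 0.0139). That call was past the threshold in 14 of 17 alternative settings, and was lost without the miR-421 pool or replicate 2. The probe is at chromosome 6, 30894098 to 30894157, plus strand (hg19).

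FARS2, the mitochondrial phenylalanine enzyme, stood at -0.01, 0.04 and 0.10 under miR-338-5p, against 0.51, 0.12 and 0.54 under miR-421 (pool, replicates 1 and 2). The lines did not overlap, although miR-421 replicate 1 was only just above the highest miR-338-5p array. The miR-421 mean was 0.39 ± 0.23 (SD, n = 3; limma adjusted p = 0.0334) and the miR-338-5p mean was 0.04 ± 0.06 (adjusted p = 0.81). NARS2, the asparagine enzyme, stood at -0.07, -0.13 and -0.25 under miR-338-5p, against -0.45, -0.18 and -0.33 under miR-421. It was below 0 on all 6 arrays, with a small fall under miR-421 of -0.32 ± 0.14 (limma adjusted p = 0.0288) beside -0.15 ± 0.09 under miR-338-5p (adjusted p = 0.236). The FARS2 call was lost without the pool, replicate 2 of miR-421, or replicates 1, 2 or 3 of miR-338-5p, and the NARS2 call without the pool or replicate 2.

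The lowest mitochondrial means did not pass the threshold. EARS2, the glutamate enzyme, was lowest under miR-338-5p at -0.36, -0.65 and -0.15, which averaged -0.39 ± 0.25 (SD, n = 3; limma adjusted p = 0.0749), and averaged -0.21 ± 0.14 under miR-421. HARS2, the histidine enzyme, was lowest under miR-421 at -0.11, -0.81 and -0.16, a mean of -0.36 ± 0.39 (adjusted p = 0.12), and averaged -0.18 ± 0.09 under miR-338-5p. Replicate 1 of miR-421 alone set that low HARS2 mean, as it did for IARS2 and WARS2, the isoleucine and tryptophan enzymes, which were at -1.08 and -0.80 there and above 0 on the other miR-421 arrays. Without that array, IARS2 and SARS2 passed the threshold as higher under miR-421. MARS2, the methionine enzyme, cleared the background in Cy5 on 5 of the 6 arrays, and the leading probe of every other member did so on all 6 in both dyes. The MARS2 probe was dim, at a mean log2 intensity of 6.21. Its ratio on miR-421 replicate 1 was -0.20 as reported and -1.83 in the image software's ratio, which does not add the offset.

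The 2 classes differed more in their spread than in their centre. On the miR-338-5p arrays the cytosolic median was 0.23, 0.11 and 0.07, and the mitochondrial median -0.09, -0.11 and 0.07. On the miR-421 arrays (pool, replicates 1 and 2) the cytosolic median was 0.16, -0.16 and 0.31, and the mitochondrial median 0.04, -0.21 and 0.10. The cytosolic median was thus the higher on 5 arrays, and on the third miR-338-5p replicate the classes were level. That order depended on how the ratio was made: with background subtracted, in the image software's ratio and in the authors' deposited table, the cytosolic median was the lower one on the third miR-338-5p replicate (differences of -0.08, -0.08 and -0.07) and on miR-421 replicate 1 (differences of -0.02, -0.11 and -0.11), which left 4 arrays with the higher cytosolic median. The difference averaged 0.18 ± 0.17 (SD, n = 3) under miR-338-5p, against 0.12 ± 0.08 under miR-421. No p is given, because the classes were chosen with results of these data known and genes of a class are not replicates.

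The spread over the cytosolic genes was 0.63, 0.56 and 0.50 (SD over genes, log2) on the miR-338-5p arrays and 0.43, 0.96 and 0.64 on the miR-421 arrays. Over the mitochondrial genes it was 0.23, 0.26 and 0.31, and 0.34, 0.43 and 0.35. The cytosolic spread was the wider on all 6 arrays, by 1.28 times in the miR-421 pool to 2.73 times on miR-338-5p replicate 1. It was also the wider on each array in the image software's ratio, but in the pool by 0.51 against 0.46. The SD over all genes that passed the filter was 0.34, 0.44 and 0.42 on the miR-338-5p arrays. On the miR-421 arrays it was 0.41, 0.56 and 0.45, so that the cytosolic SD in the pool was close to that of all genes. Without the offset, all probes spread more widely. Their interquartile range was 0.26 to 0.45 over the arrays as reported, and 0.63 to 1.35 in the image software's ratio. The SD over all genes was not taken in that ratio, so whether the cytosolic spread exceeded it there was not tested. By count, 8 of 20 cytosolic and 3 of 16 mitochondrial genes passed the threshold under miR-421, beside 22.7% of all genes, and 2 and 0 under miR-338-5p, beside 9.19%. The miR-421 counts were 6 of 20 and 5 of 16 without replicate 1 of that line, and 0 and 0 without its replicate 2.

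**Figure D2:**
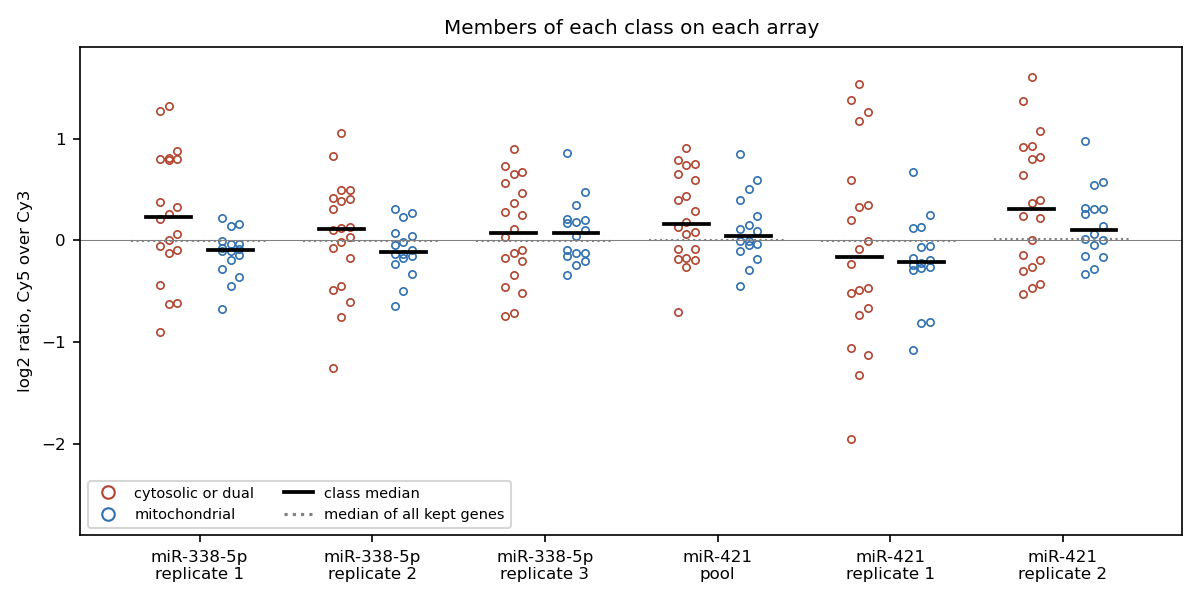
Log2 ratio (y axis) of the 20 cytosolic or dual genes (red) and the 16 mitochondrial genes (blue) on each of the 6 arrays (x axis), with a black bar at each class median and a dotted line at the median of all genes that passed the filter. The red points spread more widely than the blue ones on each array, from an SD of 0.43 in the miR-421 pool to 0.96 on miR-421 replicate 1, while both medians stay between -0.21 and 0.31.

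For 15 amino acids, both a cytosolic and a mitochondrial gene were measured, and their ratios could be subtracted on the same array. Under miR-338-5p the cytosolic gene was the higher on all 3 arrays for 7 pairs, the lower for 4 and of mixed order for 4. Under miR-421 the counts were 4, 3 and 8. The methionine pair (MARS minus MARS2) differed by 1.02 ± 0.25 (SD, n = 3) and 0.96 ± 0.44, and the alanine pair (AARS minus AARS2) by 0.66 ± 0.20 and 1.32 ± 0.50, each above 0 on all 6 arrays. The cysteine pair was the other one with the cytosolic gene higher on all 6. The arginine pair (RARS minus RARS2) lay at the other end, at -0.82 ± 0.25 and -0.83 ± 0.76, as did the valine pair (VARS minus VARS2), at -0.47 ± 0.26 and -0.67 ± 0.17. Both were below 0 on all 6 arrays, the arginine pair with the cytosolic gene low and the valine pair with the mitochondrial gene high.

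HARS and HARS2, the histidine pair, lie head to head. In the RefSeq promoter table (GRCh38.p14) their start sites are 85 bases apart on opposite strands of chromosome 5. Both genes were below 0 on all 6 arrays, and their difference was -0.23 ± 0.20 (SD, n = 3) under miR-338-5p, against 0.01 ± 0.28 under miR-421.

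**Figure D3:**
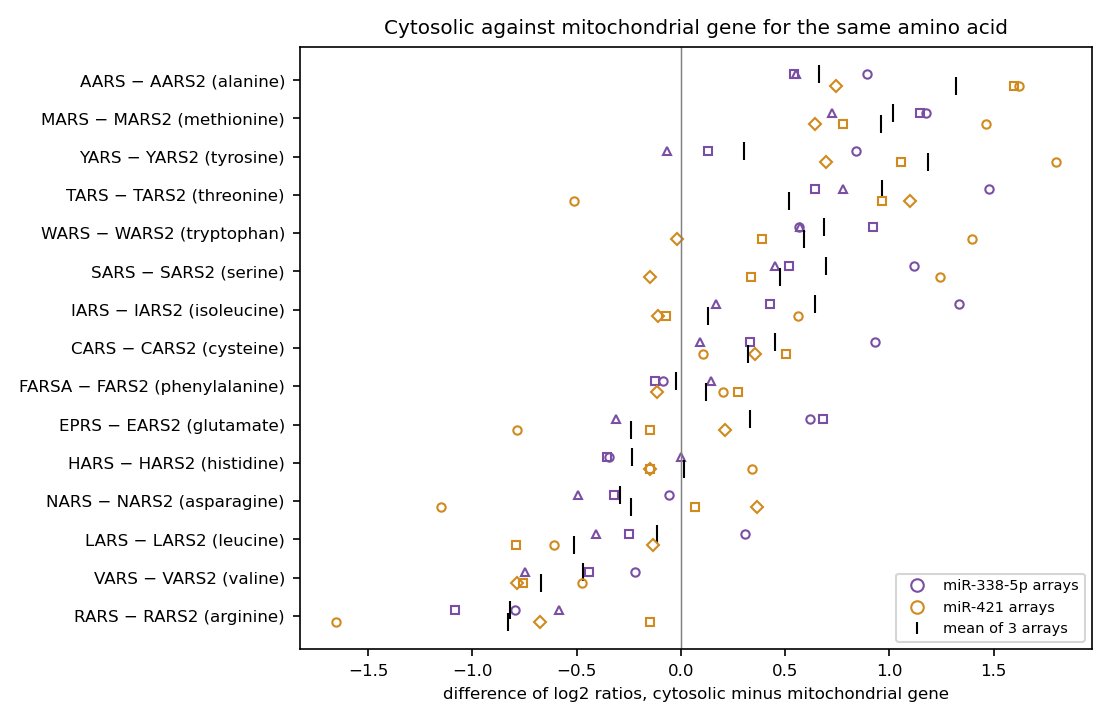
Difference of log2 ratios between the cytosolic and the mitochondrial gene for the same amino acid (x axis) for 15 pairs (y axis), on the miR-338-5p arrays (purple) and the miR-421 arrays (orange), with bars at the mean of 3 arrays. The alanine, methionine and cysteine pairs lie above 0 and the arginine and valine pairs below 0 on all 6 arrays, and the threonine pair has a single array below 0, at -0.51 on miR-421 replicate 1.

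Of the 8 enzymes of the multi-synthetase complex, MARS rose in both lines, LARS fell under miR-421 and the other 6 (EPRS, IARS, QARS, RARS, KARS and DARS) did not pass the threshold. Their median was 0.01 for miR-338-5p, against -0.25 for miR-421, and the latter was -0.08 without miR-421 replicate 1. For scale, 3.96% of all genes rose and 5.23% fell under miR-338-5p, and 10.0% rose and 12.6% fell under miR-421. Of the 12 cytosolic enzymes outside the complex, 1 was higher in the miR-338-5p line and 6 were higher in the miR-421 line, with medians of 0.35 and 0.44. Leaving out single arrays moved that count of 6 to between 0 (without miR-421 replicate 2) and 5. Among the scaffold proteins of the complex, AIMP2 rose under miR-338-5p by 0.66 ± 0.33 (SD, n = 3; limma adjusted p = 0.036), and its miR-421 mean was 0.34 ± 0.16 (adjusted p = 0.113). AIMP1 fell under miR-421 at -0.68 ± 0.43 (adjusted p = 0.036), with -0.17 ± 0.21 under miR-338-5p. EEF1E1, the third scaffold protein, averaged 0.43 ± 0.08 and -0.20 ± 0.26, neither past the threshold. Both calls were lost without the pool, replicate 2 of miR-421, or replicate 1 or 3 of miR-338-5p.

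In the direct comparison of the lines, limma called 0 of the 36 members, 5 of which had an unadjusted p under 0.05, and 10 of 21692 genes, 0.0138% as higher under miR-338-5p and 0.0323% as lower. The arrays of the lines did not overlap for 2 members, FARSA and FARS2, both higher under miR-421, and for 0 members in the other direction. Over all genes the shares without overlap were 10.2% higher under miR-421 and 9.90% higher under miR-338-5p. The largest differences (miR-338-5p minus miR-421) were those of YARS and AARS, given above, and in the other direction that of LARS at 0.45 (limma adjusted p = 0.325).

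The signal of each dye was compared between arrays for 9 genes picked for plotting. The control signal (Cy3) of MARS lay between 10.36 and 10.66 (log2 intensity) on the 6 arrays and its Cy5 signal between 11.30 and 11.92. That of RARS lay between 12.07 and 12.39 in Cy3 and between 10.12 and 11.75 in Cy5. For the 9 genes plotted, the range over the arrays was 0.19 (FARSA) to 0.39 (LARS) in Cy3 and 0.63 (MARS) to 1.63 (RARS) in Cy5. For each of these 9 genes the Cy5 signal varied more between arrays than the Cy3 signal did. Cy5 held RNA of both miRNA lines, and Cy3 held control RNA on every array. RARS2, not plotted, went the other way, with a range of 0.20 in Cy3 and 0.17 in Cy5. For these signals, the average intensity of both dyes was also quantile-normalised between arrays, that is, given the same distribution on each array. The ratios were normalised within arrays only.

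**Figure D4:**
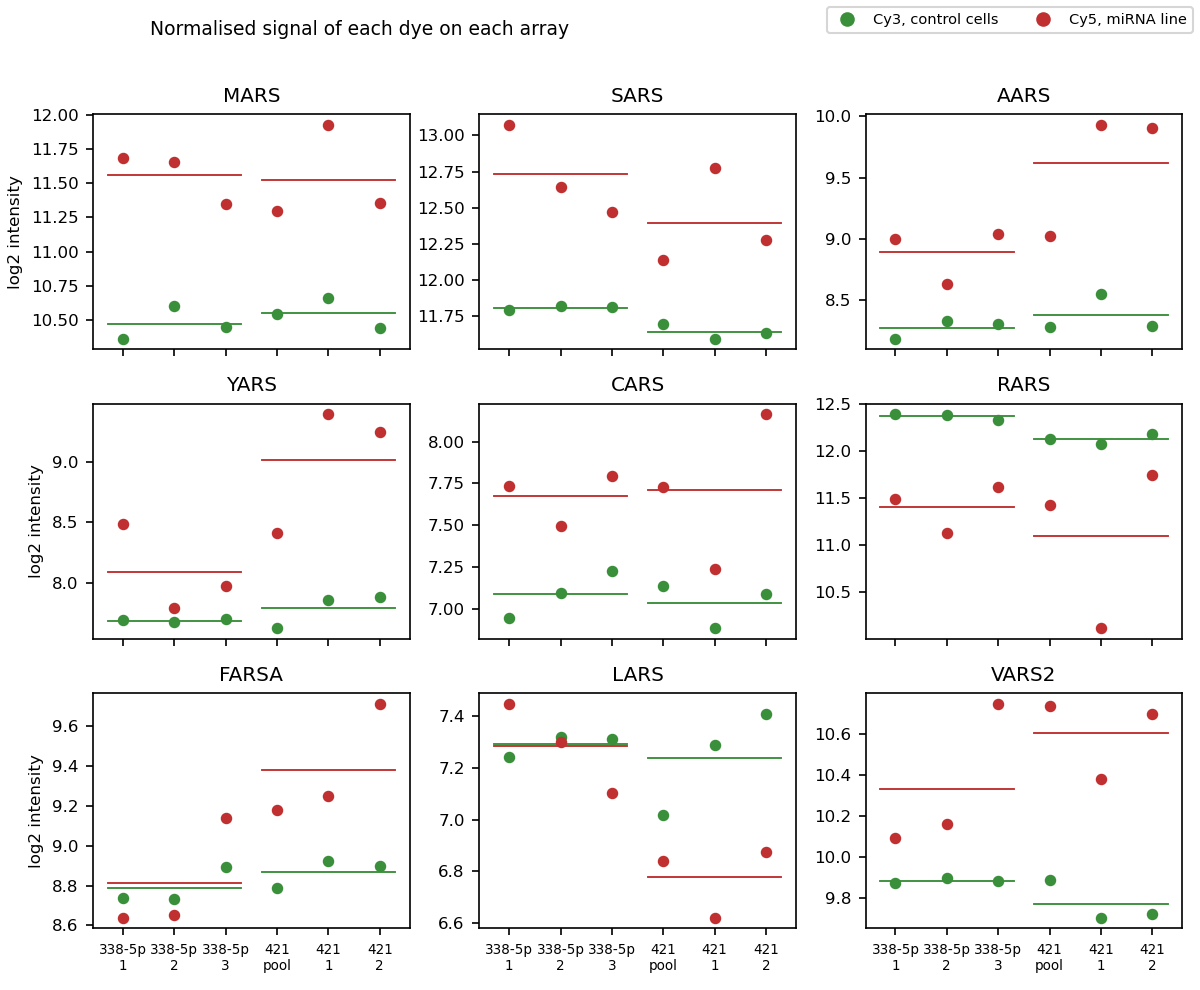
Normalised log2 intensity (y axis, scaled per gene) in Cy3 (control cells, green) and Cy5 (miRNA line, red) for 9 synthetase genes on each array (x axis); points are arrays and lines the mean of a group. Cy3 points stay within 0.39 of each other for each gene, and the Cy5 points of MARS, SARS, AARS, YARS, CARS and VARS2 lie above Cy3, and those of RARS below it, on all 6 arrays.

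The cytosolic genes were also split by whether they are commonly listed as targets of ATF4, a list of 13 taken from general knowledge. That list was chosen with earlier results of these data known, so the split is not independent evidence. Of these 13, 2 rose under miR-338-5p and 6 rose (AARS, YARS, MARS, SARS, CARS and WARS) and 1 fell (LARS) under miR-421, with medians of 0.39 and 0.37. Over all genes, 3.96% rose and 5.23% fell under miR-338-5p, against 10.0% and 12.6% under miR-421. Of the other 7, 0 passed the threshold under miR-338-5p by limma (4 at an unadjusted p under 0.05) and 1, FARSA, rose under miR-421, with medians of -0.34 and -0.22. The listed genes thus had the higher median in both lines, but GARS, TARS, VARS, IARS, EPRS and NARS are among them and did not pass the threshold, although GARS and TARS did without miR-421 replicate 1. Without miR-421 replicate 2 the miR-421 count among the 13 was 0, and without miR-421 replicate 1 the miR-338-5p count was 5.

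The promoters were searched for the motif TGATGNAA, a form of the CCAAT/enhancer-binding protein and ATF response element through which ATF4 acts, on both strands. RefSeq windows (GRCh38.p14) of 250 bases before to 50 bases after the start site were found for 30 of the 36 members, not for DARS, LARS, VARS, YARS, AARS2 and VARS2. The motif was in the windows of 7 of 16 cytosolic genes (AARS, CARS, GARS, IARS, MARS, NARS and TARS) and 1 of 14 mitochondrial genes (YARS2). Of all genes in the table, 4.46% had it, and 3.62% of all windows. The exact form TGATGCAA was in 6 of the 16 and 0 of the 14, against 1.08% of all genes. Of the 7 cytosolic genes with the motif, AARS, CARS and MARS passed the threshold under miR-421, and GARS, IARS, NARS and TARS did not. A stretch of 28 bases around the match is shown for 3 genes that rose under miR-421 and 1 that did not pass the threshold, with the motif in capitals; TTGCATCA is TGATGCAA on the opposite strand.
MARS: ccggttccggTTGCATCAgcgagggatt
CARS: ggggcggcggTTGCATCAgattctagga
AARS: tttctcgcagTTGCATCAgccaagttag
NARS: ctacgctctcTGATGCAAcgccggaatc
The stretches lie on chromosome 12, 57488054 to 57488081, plus strand (MARS), chromosome 11, 3057408 to 3057435, minus strand (CARS), chromosome 16, 70289676 to 70289703, minus strand (AARS), and chromosome 18, 57621805 to 57621832, minus strand (NARS), on GRCh38.p14. The match began 4 bases before the start site in MARS, 2 before it in CARS, 187 before it in AARS, and at base 15 of the transcript in NARS. The windows of SARS, WARS and FARSA, which also rose under miR-421, did not hold these letters. A match describes the letters of a window, not binding.

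Other genes of amino acid supply and translation were counted for context. The shares over all genes were 3.96% higher and 5.23% lower under miR-338-5p, and 10.0% higher and 12.6% lower under miR-421. Of 20 genes of the amino acid deprivation response, 10 rose and 1 fell under miR-338-5p, whereas 14 rose and 1 fell in the miR-421 line, with medians of 0.74 and 0.83. The highest were CHAC1, which breaks down glutathione, at 2.01 ± 0.38 and 2.23 ± 0.29 (SD, n = 3), and the transcription factor ATF3 at 2.14 ± 0.23 and 1.79 ± 0.43. The lowest were the transcription factor ATF5, which fell at -1.07 ± 0.46 and -1.42 ± 0.07, and EIF2AK4, the kinase GCN2 that senses uncharged tRNA, at -0.35 ± 0.07 and -0.11 ± 0.35, not past the threshold. ATF4 itself, named outside the rule for named genes and after its values were seen, rose by 0.98 ± 0.11 and 0.80 ± 0.23 (limma adjusted p = 0.0083 and 0.0071). This list overlaps genes already known to rise in these data, so its count is not independent evidence. With single arrays left out, 7 to 11 of the 20 rose under miR-338-5p and 6 (without miR-421 replicate 2) to 14 under miR-421.

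Of 10 amino acid transporters, 4 rose under miR-338-5p and 5 rose and 2 fell under miR-421. Among all genes, 3.96% rose under miR-338-5p, and 10.0% rose and 12.6% fell under miR-421. SLC3A2, the heavy chain of the large neutral amino acid exchanger, rose by 1.19 ± 0.24 and 1.41 ± 0.30 (SD, n = 3). SLC38A2 and SLC38A1, which import small neutral amino acids, were at -0.05 ± 0.20 and 0.03 ± 0.40 under miR-338-5p and fell to -1.49 ± 0.57 and -1.35 ± 0.85 under miR-421. The miR-421 count of rises was 1 without miR-421 replicate 2, and the miR-338-5p count was 1 without replicate 1 or 3 of miR-338-5p.

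**Figure D5:**
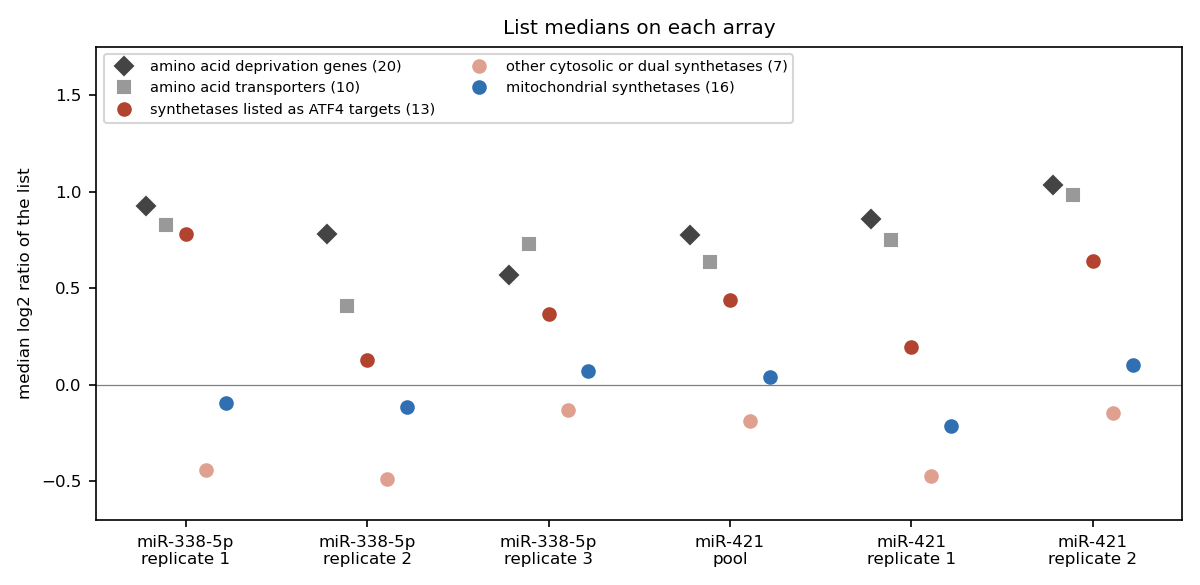
Median log2 ratio (y axis) on each array (x axis) of 20 amino acid deprivation genes, 10 amino acid transporters, the 13 synthetases listed as ATF4 targets, the other 7 cytosolic or dual synthetases and the 16 mitochondrial synthetases. On each array the listed synthetases lie below the deprivation genes and above the other cytosolic ones, and the mitochondrial median stays between -0.21 and 0.10.

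Genes on either side of the synthetases in translation were counted last. Beside them, 3.96% of all genes rose and 5.23% fell under miR-338-5p, and 10.0% rose and 12.6% fell under miR-421. Of 4 genes that form mitochondrial glutaminyl-tRNA or formylmethionyl-tRNA, GATB rose under miR-421 by 0.59 ± 0.35 (SD, n = 3; limma adjusted p = 0.0341). Of 11 genes of tRNA export, editing and processing, 1 rose and 1 fell under miR-338-5p and 1 rose and 2 fell under miR-421. PTRH2, a peptidyl-tRNA hydrolase, fell in both lines, at -0.63 ± 0.18 and -0.72 ± 0.08. Of 12 cytosolic translation factors, 1 rose and 1 fell under miR-338-5p and 2 rose and 3 fell under miR-421, with the cap-binding factor EIF4E lowest at -1.03 ± 0.36 and -1.54 ± 0.06. Of 8 mitochondrial translation factors, 0 passed the threshold under miR-338-5p by limma (1 at an unadjusted p under 0.05), and 3 fell under miR-421 (MTIF3, MTRF1 and MTRF1L), MTIF3 at -0.55 ± 0.07. These counts also moved with single arrays left out, to 1 or 2 lower mitochondrial factors and 1 to 3 lower cytosolic ones under miR-421, and 0 to 3 lower tRNA processing genes under miR-338-5p. The GATB list had 0 rises under miR-421 without the pool, replicate 2 of miR-421 or replicate 1 of miR-338-5p.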

How the data were processed

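Per the file headers, the deposited intensity values are mean spot and median local background brightness in Cy3 and Cy5, read with Feature Extraction 11.5.1.1 and not normalized. The deposited log10 ratio (Cy5 over Cy3) was corrected by that software, per the file headers. The whole-series table held the authors' log2 ratios, whose normalization and centring are not given in the sources used here. It followed the image ratio (r 0.965 to 0.971 across genes) in the same direction, with array medians of 0.03, 0.02 and -0.06 (miR-338-5p) and -0.16, 0.01 and -0.12 (miR-421 pool, replicates 1 and 2). Both tables served as alternatives.

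Intensities were corrected by normexp with an offset of 50, which shrinks ratios of dim probes, and normalized by loess within arrays, without control and outlier spots. For the signals of single dyes, the average intensity was also quantile-normalized between arrays. A probe was kept if it stood well above background in Cy3 or Cy5 on 3 or more arrays (27509 of 58201). All 6 arrays entered 1 fit in limma 3.58.1 (R 4.3.3; prior degrees of freedom 2.05), two-sided, checked on simulated data; the number of arrays limits the precision. Members passing the threshold, and each class's highest and lowest, are given array by array. For other lists the 2 highest and 2 lowest genes are the ones eligible for naming, with the genes called where counts are small. The members and lists were chosen with earlier results of these data known. Figures used matplotlib 3.10.9. Probe coordinates are on hg19 per the file headers. No exon, UTR or protein annotation was used here.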

Additional observations from a re-analysis of the deposited data

How the results depend on the processing

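Alternatives covered background, normalization, source of the ratio, filter, outlier spots, variance model, arrays in the fit, probes per gene and single arrays. The 11 members past the threshold under miR-421 became 5 with median centring, 5 without the filter, 4 with only that line's arrays and 0 to 11 with single arrays left out. The 2 under miR-338-5p became 1 without the filter, 4 with a trended robust variance, 0 with only that line's arrays (17 at an unadjusted p under 0.05) and 1 to 8 with single arrays left out. The other alternatives gave 9 to 13 and 2 to 3. The class difference under miR-421 was 0.12 as reported, 0.23 with median centring, 0.049 in the image ratio, 0.056 in the authors' table and 0.063 with background subtracted, and under miR-338-5p it stayed between 0.11 and 0.27. Median centring shifted the median of all probes to between -0.14 and 0.04, and among all genes it turned 860 higher and 1134 lower calls under miR-338-5p into 194 and 824. Under miR-338-5p the sign of LARS turned to 0.0094 with background not corrected, 0.028 with it subtracted, 0.025 in the image ratio and 0.026 in the authors' table, and its mean ran from -0.11 to 0.093 with single arrays left out. FARSA turned to -0.18 and FARS2 to -0.096 with median centring, and FARSA ran from -0.090 to 0.084 with single arrays left out. The cause was not tested. Numbers 1 and 2 were the only replicate numbers shared by both lines, too few to show whether they pair the samples. Deviations correlated at -0.14 for number 1 and -0.21 for number 2, and at -0.15 to 0.20 between arrays not sharing a number. With the replicate block limma called 0 of 36 members in the difference (6 at an unadjusted p under 0.05) and 0 of 21701 genes. That fit left little from which to estimate the spread, so few calls could be made. Leaving single arrays out of the list counts was added after seeing the data.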
